A study of Homo sapiens with 10 samples.

Results

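The 3 libraries described here come from HEK293T cells that made the cytidine deaminase APOBEC1 on its own, without the ribosomal fusion partner that the study's other constructs carry. They were selected by their labels and are 3 of the 10 libraries of the series. The remaining libraries are 3 of HEK293T with Ribo-STAMP, in which APOBEC1 is joined to the small-subunit ribosomal protein RPS2, and 4 of MDA-MB-231, a breast cancer line, which are not used here. HEK293T is a line of human embryonic kidney origin with the SV40 large T antigen. All 6 HEK293T libraries were unperturbed cells with a doxycycline-inducible expression vector, given 1 ug/mL doxycycline for 72 h, and their polyadenylated RNA was read with PacBio Iso-Seq. No uninduced cells and no cells without a deaminase are among the samples, so an edit here has no deaminase-free background beside it. Replicates are numbered, but nothing in the labels tells whether they were separate cultures or whether the line was 1 clone, so the spread between libraries may be technical.

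APOBEC1 converts cytidine to uridine, and in the intestine its known substrate is the apolipoprotein B messenger RNA, where a single edited cytidine creates a stop codon. There it acts with RNA-binding partners such as A1CF and RBM47 that place it on the transcript. When the enzyme is overexpressed by itself it meets many messenger RNAs, and in methods that fuse it to a protein of interest the free enzyme serves as the background against which directed edits are read. The question these libraries address is which coding sequences the free enzyme marks and how repeatably.

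Each deposited entry names an isoform and a base of its coding sequence, with 2 read numbers, the reads that carry the edit and the reads that cover the position. A position is listed only if at least 1 read was edited, so a gene that is not listed may be absent, thinly covered or covered and unedited. The libraries listed 3308, 3019 and 2791 positions in replicates 1, 2 and 3 (3039 ± 259, SD, n = 3), with 3498, 3173 and 2971 edited reads (3214 ± 266, SD, n = 3). These lay in 1832, 1706 and 1522 genes. Total library depth is unknown. The reads on listed isoforms, taking the median coverage of each isoform, summed to 110526, 101252.5 and 81591.5. Replicate 3 had the fewest covering reads and, at 36.4 edited reads per 1000 of them, the highest ratio, against 31.6 and 31.3 in replicates 1 and 2. Of the 6 HEK293T marker genes, CKB, LIN28B, NEFM and INA were listed in 1 or 2 libraries each and PAX2 and NEFL in none, while 0 of 6 marker genes of MDA-MB-231 were listed.

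The listed edits were mostly single and scattered. Without a deaminase-free library, how many such single reads would be listed in the absence of the enzyme is not known. At 96.7, 96.8 and 95.5% of positions exactly 1 read was edited, and the median coverage of an entry was 53, 50 and 45 reads. In 64.1, 66.4 and 62.7% of a library's genes 1 edited read was all that was seen. Few edits were close neighbours: 3.53, 3.56 and 3.61% of entries had another entry within 10 bases on the same isoform. At the other end, 98, 96 and 95 genes had 5 or more edited positions, and 29, 22 and 15 genes had 10 or more. The highest number of positions in a gene was 19 in replicate 2, in EIF4G2 and in PARP1, and 37 in replicate 3, in EEF2.

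Most genes were listed in a single library. Of 3295 genes listed in any (3269 with a symbol), 1988 (60.3%) were in 1 library, 849 (25.8%) in 2 and 458 (13.9%) in all 3. Seen from each library, the 458 genes made up 25, 26.8 and 30.1% of its genes but held 44.5, 44.7 and 48.8% of its edited reads. They had 2.97 ± 0.136 edited positions per gene and library (SD, n = 3), against 1.52 ± 0.0368 for genes in 2 libraries and 1.24 ± 0.0486 for genes in 1. Even among the 458 the counts were low: the library with fewest showed 1 position in 316 genes, at least 2 in 142, at least 5 in 35 and at least 10 in 5. These classes were formed from the edits themselves, so the values describe them and are not tested.

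The classes also differed in measures that are not edit counts. Median coverage was 12 reads for genes in 1 library, 30 for genes in 2 and 71.5 for genes in all 3. Coverage was below 20 reads for 63.9, 34.5 and 13.5% of the classes in that order. Median coding length was 1500, 1839 and 2070 bases, whereas the cytidine content of the coding sequence was alike (medians 23.7, 23.6 and 23.7%). All 458 genes were also listed in Ribo-STAMP cells, 428 of them in each of the 3 Ribo-STAMP libraries. By contrast, 247 of the 1988 genes seen once were in no Ribo-STAMP library.

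A gene chosen in 2 libraries can be followed in the one that the choice did not use. Genes listed in both other libraries were listed again in 68.0% of cases in replicate 1, 63.1% in replicate 2 and 55.7% in replicate 3. For genes listed in just 1 of the other libraries the shares were 33.7, 30.5 and 25.6%. Coverage separated the outcomes within the first set. With a mean coverage under 20 reads in the choosing libraries, 42.6, 37.4 and 37.3% were listed again, and with 100 reads or more 91.3, 92.5 and 78.6% were. Pairs of libraries shared 823, 726 and 674 genes (1 and 2, 1 and 3, 2 and 3). Across those genes Spearman's rho was 0.936, 0.862 and 0.844 for coverage and 0.484, 0.430 and 0.444 for edited reads, as a description across genes that are not independent replicates. Coverage was thus nearly the same ranking in each library, and edited reads were a looser one.

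Because a listed gene has at least 1 edited read, its editing per covering read cannot fall below 1 over its coverage. Editing per read is given as edited reads, summed over the positions of a gene, per 100 reads covering it, and can pass 100 where reads carry several edits. Within each library its Spearman correlation with coverage across genes was -0.900, -0.902 and -0.909. The median was 25 in genes covered by 1 to 9 reads, 7.91 at 10 to 19, 4.05 at 20 to 49, 2.16 at 50 to 99, 1.65 from 100 to under 200 and 1.71 at 200 or more (means of the library medians, n = 3). Up to about 100 reads this order follows the floor: 85.3% of genes in the lowest class had 1 edited read, as did 48.6% at 50 to 99 reads and 8.65% at 200 or more. The levels of thinly covered genes are therefore set by the listing. The medians of the 2 classes above 100 reads were close.

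**Figure D1:**
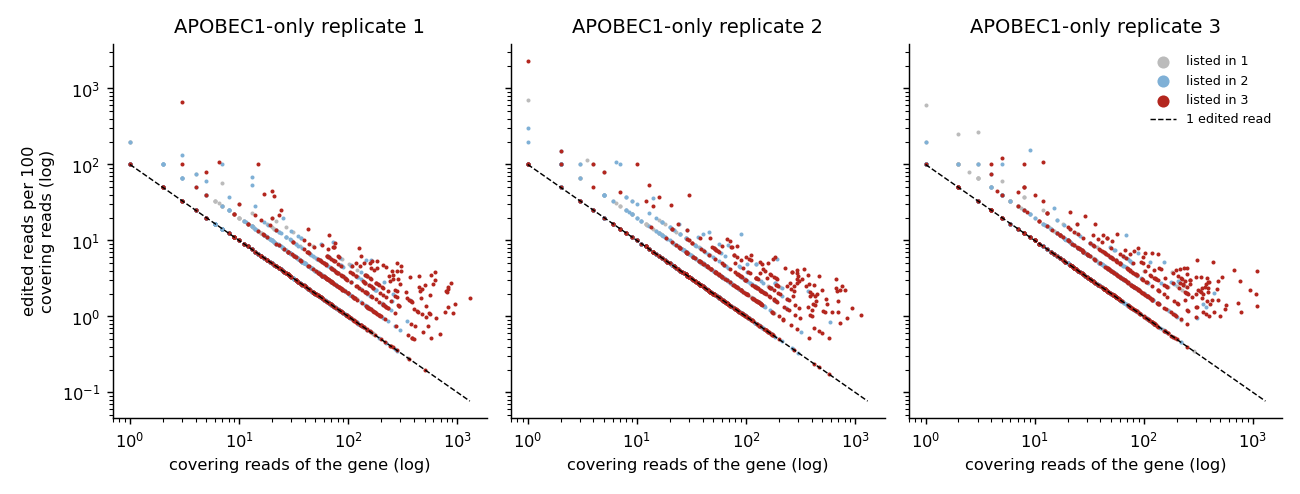
Edited reads per 100 covering reads of each listed gene (vertical, log axis) against the reads covering it (horizontal, log axis) in the 3 APOBEC1-only libraries, coloured by whether the gene was listed in 1, 2 or 3 libraries. The dashed line is the value that 1 edited read gives; most genes of low coverage lie on it, and genes listed in all 3 libraries lie mostly to the right.

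The Ribo-STAMP libraries give a coverage that does not depend on APOBEC1-only edits, so that isoforms with no APOBEC1-only edit can be kept at 0. In all, 3075 isoforms were listed in each of the 3 Ribo-STAMP libraries, which itself selects isoforms that the fusion edited. Of these, 1019 were in no APOBEC1-only library, 1011 in 1, 640 in 2 and 405 in all 3. The share listed in an APOBEC1-only library was higher at each step of Ribo-STAMP coverage, from 16.5% ± 2.55 at 1 to 9 reads through 25.2% ± 2.52, 36.8% ± 3.50, 56.1% ± 8.66 and 71.7% ± 8.15 to 91.7% ± 5.80 at 200 or more (SD, n = 3). Edited reads per 1000 Ribo-STAMP covering reads changed far less: 40.9 in the lowest class, 24.1 and 17.4 in the next, and then 15.5, 14.4 and 16.2 from 50 reads upward. From 50 reads upward the number of edits was thus close to proportional to this coverage.

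**Figure D2:**
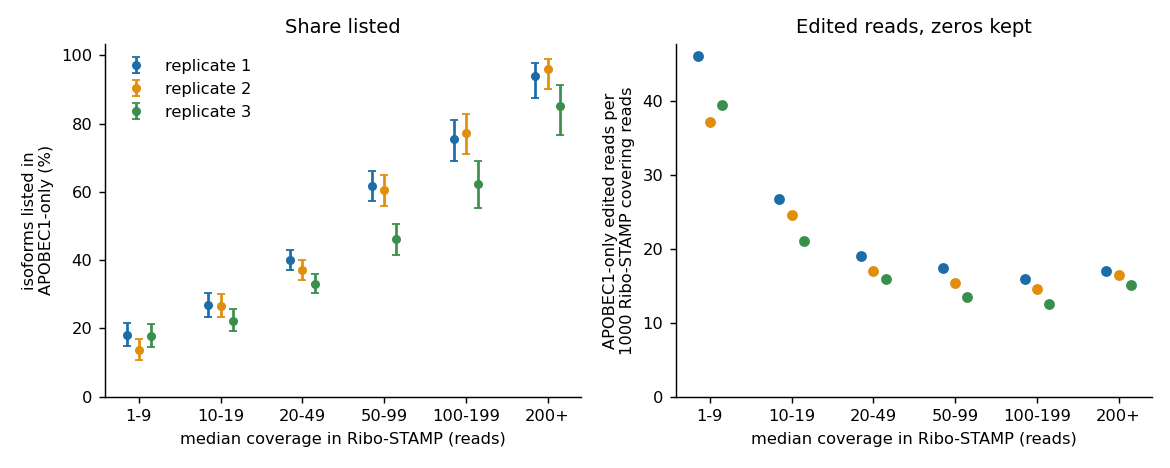
Left, percent of isoforms listed in each APOBEC1-only library, and right, APOBEC1-only edited reads per 1000 Ribo-STAMP covering reads, by the isoform's median coverage in the Ribo-STAMP libraries (horizontal classes), for the 3075 isoforms listed in every Ribo-STAMP library; bars are exact 95% Clopper-Pearson intervals for counting error only. The share runs from 16.5 to 91.7% on average with replicate 3 lowest in the upper classes, while the rate on the right levels off from 50 reads upward.

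Longer coding sequences carried more edits at like coverage. Split at the median coding length, the longer isoforms carried 0.684 edited reads each and the shorter ones 0.409 at a Ribo-STAMP coverage of 20 to 49 reads, with 1.38 and 0.779 at 50 to 99, 2.68 and 1.29 from 100 to under 200, and 7.31 and 4.44 at 200 or more. Per kilobase of coding sequence the order turned: in those classes the longer isoforms had 8.18, 7.78, 7.59 and 6.76 edited reads per 1000 covering reads and kilobase, and the shorter ones 11.9, 10.7, 9.91 and 9.90. Edited reads were thus more numerous in longer coding sequences, but less than in proportion. Across 124 genes with at least 100 reads in each APOBEC1-only library, a set chosen after the values were seen, Spearman's rho of edited reads with coverage was 0.626, and with coverage times coding length 0.856. In that set editing per 100 reads and kilobase had a median of 1.03 and a 10th to 90th percentile range of 0.646 to 1.63. Its lowest gene was TRAP1, a mitochondrial HSP90 chaperone, at 0.452, and its highest HDAC1, a histone deacetylase, at 2.15. The SD of the 124 gene means was 0.384, and the median SD of 1 gene over its 3 single-library values was 0.346. The second is a spread of single values and the first of means of 3, so the 2 are not on the same footing.

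Some well covered isoforms drew no edit. Of 308 isoforms with a Ribo-STAMP coverage of 100 reads or more, 10 (3.25%) were in no APOBEC1-only library, and for 9 of them no other isoform of the gene was listed. These genes were named after their values were seen. They include FSTL1, YWHAG, the nuclear transport GTPase RAN and the nucleosome-binding HMGN2. HMGN2 had the highest coverage, 276 reads, and a coding sequence of 273 bases. FSTL1, a secreted glycoprotein, had 140 reads and 927 coding bases, and in Ribo-STAMP cells it carried 40, 34 and 19 edited reads. Coverage of these isoforms in APOBEC1-only cells is not known from entries that list edited positions alone.

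The most repeatedly edited genes were abundant messages of general cell function. They were ranked by the lowest of the 3 libraries' numbers of distinct edited positions, and the first 20 held 8.45% of all edited reads. All 20 were also among the 100 genes with most edited reads in Ribo-STAMP cells. Their coverage ran from 207.5 to 1295.5 reads, and how many other genes of like coverage were among those 100 was not counted. Per 100 reads and kilobase the means of the 20 over the libraries lay between 0.679 and 1.64. Their median of 1.09 sits beside the 1.03 of the 124 well covered genes.

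**Figure D3:**
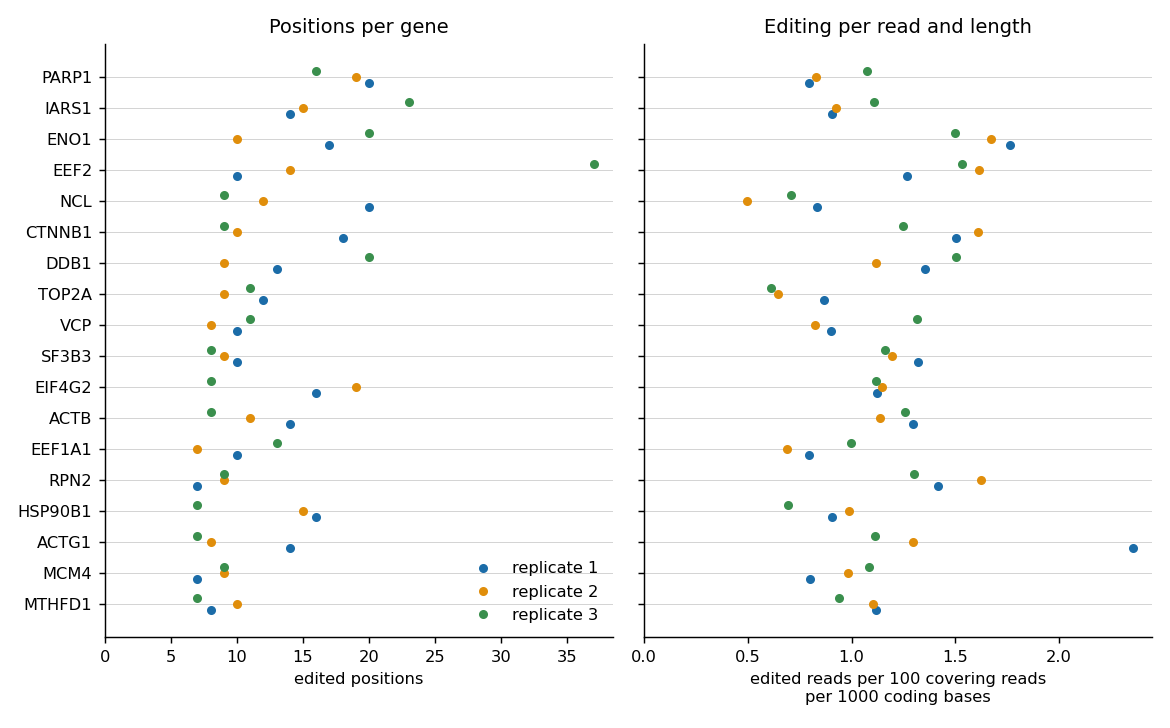
The 18 of the 20 most repeatedly edited genes that are described here, with distinct edited positions in each APOBEC1-only library and editing per 100 covering reads and kilobase of coding sequence in each library. PARP1 leads with at least 16 positions in every library, EEF2 has its highest value, 37, in replicate 3, and the per-kilobase level of ACTG1 in replicate 1 lies apart on the right.

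Among the 20 were nuclear enzymes of DNA repair and replication. PARP1, which senses DNA breaks and makes poly(ADP-ribose), had 20, 19 and 16 edited positions with 20, 19 and 17 edited reads, at 824, 751 and 519.5 covering reads. That is 2.43, 2.53 and 3.27 edited reads per 100 covering reads, so its fewest edits came with its lowest coverage and its level was highest there. DDB1, the damage-binding adaptor of the CUL4 ubiquitin ligase, had 14, 10 and 22 edited reads at 302, 261 and 427 covering reads. TOP2A, the topoisomerase that untangles replicated DNA, had 12, 9 and 11 edited reads, and MCM4, a subunit of the replicative helicase, had 7, 9 and 11. Per 100 covering reads TOP2A stood at 3.99, 2.97 and 2.81 and MCM4 at 2.08, 2.54 and 2.81, and the 2 genes overlapped.

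Genes of protein synthesis supplied the highest single totals. EEF2, which moves the ribosome along the message, had 12, 14 and 43 edited reads at 368, 337 and 1088 covering reads. Replicate 3 thus stood far above the others in edits and in coverage alike, and per 100 reads EEF2 was level at 3.26, 4.15 and 3.95. IARS1, the isoleucyl-tRNA synthetase, showed the same with 15, 16 and 28 edited reads at 444, 463 and 676.5 covering reads, or 3.38, 3.46 and 4.14 per 100. EIF4G2, an initiation factor related to eIF4G, went the other way with 19, 21 and 8 edited reads at 621, 672 and 263 covering reads. Its level of 3.06, 3.12 and 3.04 per 100 reads was the most even of the 20 genes (SD 0.0438, n = 3). EEF1A1, which delivers aminoacyl-tRNA, had 10, 8 and 15 edited reads at 903, 836 and 1083 covering reads. EEF1A1 has a near-identical paralog and pseudogenes, so its reads could be shared with them and its values are uncertain.

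RNA-binding and nucleolar genes included NCL, the nucleolar protein nucleolin, and SF3B3, a subunit of the spliceosome. NCL was the most heavily covered, at 1295.5, 1138.5 and 726 reads, and had 23, 12 and 11 edited reads. Its level of 0.679 ± 0.171 per 100 reads and kilobase (SD, n = 3) was the lowest of the 20. SF3B3 was steady at 10, 10 and 9 edited reads of 207.5, 229 and 212.5.

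Metabolic, signalling, chaperone and cytoskeletal genes completed the ranking. ENO1, the glycolytic enolase, had 19, 15 and 21 edited reads at 825, 687 and 1075 covering reads and the highest level per 100 reads and kilobase of the 20, at 1.64 ± 0.136 (SD, n = 3). MTHFD1, an enzyme of folate metabolism, had 9, 10 and 7. CTNNB1, the junction and Wnt signalling protein beta-catenin, had 20, 11 and 14 edited reads at 567, 291 and 478 covering reads. VCP, an ATPase that extracts ubiquitinated proteins, had 10, 9 and 12 edited reads. In the secretory path RPN2, a subunit of the oligosaccharyltransferase, had 8, 9 and 9, and the chaperone HSP90B1 had 17, 16 and 7 as its coverage went from 778 and 673 to 419. The actins ACTB (14, 12 and 8 edited reads) and ACTG1 (16, 8 and 7) are nearly identical in sequence, and how reads were divided between them is not known.

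The same gene was edited again, but seldom at the same base. Of the 708 distinct positions in these 20 genes, 670 (94.6%) were listed in 1 library, 33 in 2 and 5 in all 3. PARP1, with 52 positions in all, had 50 in 1 library, 1 in 2 and 1 in 3.

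Editing per covering read can be ranked where coverage allows it, among the 358 genes listed in all 3 libraries with at least 20 reads in each. ECPAS, an adaptor of the proteasome, was far above the rest with 45.0, 40.0 and 23.8 edited reads per 100 covering reads, from 9, 12 and 5 edited reads at 20, 30 and 21 covering reads. The gene with the next highest lowest library was NUP155, a nuclear pore scaffold protein, at 6.82, 8.70 and 9.09. PITRM1, ZNF281, HDLBP, GTF3C2, DCTN1, MYBBP1A, WDR36 and FAM120A followed, and the values of single libraries outside ECPAS ran from 4.55 to 16.7, both of them in FAM120A, the latter from 4 edited reads at 24 covering reads. All of these have long coding sequences, the shortest being that of ZNF281 at 2688 bases. HDLBP, a many-KH-domain RNA-binding protein, rested on most reads, with 7, 6 and 9 edited reads at 75.5, 110 and 134.

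The lowest genes were well covered, and all but KPNA2 had short coding sequences. TMED2, a cargo receptor of vesicle transport with a coding sequence of 606 bases, had 2, 1 and 1 edited reads at 385.5, 275 and 251 covering reads, or 0.519, 0.364 and 0.398 per 100. YWHAQ, a 14-3-3 protein of 738 coding bases, was at 0.505, 0.528 and 0.498. MAPRE1, which binds microtubule ends, had 1 edited read in each library. KPNA2, an importin alpha of 1590 coding bases, had 4, 3 and 2 at 533, 469 and 217 covering reads. Per kilobase TMED2 and YWHAQ were at 0.705 ± 0.134 and 0.691 ± 0.0213 (SD, n = 3), inside the 10th to 90th percentile range of the well covered genes, while KPNA2 was below it at 0.485 ± 0.0894.

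Single positions rarely recurred. Of 8816 distinct positions, 8544 were listed in 1 library, 242 in 2 and 30, in 29 genes, in all 3. Positions in Ribo-STAMP cells overlapped them more the more often they recurred: 19.2% of the first class, 55.8% of the second and 80.0% of the third were listed in at least 1 Ribo-STAMP library. None of the positions was in all 6 libraries of HEK293T, whereas 238 of the first class and 36 of the second were in all 3 Ribo-STAMP libraries. Whether a processing step left out positions found in every library is not given in the sources used here, and its part in these recurrence counts was not tested. Of the 30, 18 were in 2 Ribo-STAMP libraries, 6 in 1 and 6 in none, and a position not listed there is not shown to be unedited.

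The 30 were divided by cuts at 10% and 2% of reads edited. Neighbouring values lay on both sides of each cut, 10.6 and 7.27% at the upper and 3.06 and 1.96% at the lower. Each of the 30 has at least 1 edited read in every library, so a thinly covered position cannot have a low share. In 14 positions at least 10% of reads were edited over the 3 libraries together, all at a coverage of 31 reads or less in each library and all 14 also listed in Ribo-STAMP cells. In 12 positions under 2% were edited, at coverages from 21 to 841 reads, and 8 of the 12 were listed in Ribo-STAMP cells. The other 4 lay between, in DAP3, DIS3L, NECAP2 and PTK7. Coordinates below are as listed in the deposited files, whose genome build is not given, and all positions lie in coding sequence by the files' own listing.

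The position in PHYH, the peroxisomal phytanoyl-CoA hydroxylase, was listed as edited in every read: 15 of 15, 10 of 10 and 8 of 8. It lies on the minus strand of chromosome 10 at 13337588, and its pooled exact 95% interval started at 89.4%. It was likewise 1 of 1 and 15 of 15 in the 2 Ribo-STAMP libraries that listed it. The mitochondrially encoded MT-ND5, a subunit of respiratory complex I, had 6 of 6, 2 of 2 and 12 of 12 at position 12802. TECR, an enzyme of fatty acid elongation, had 4 of 5, 4 of 4 and 5 of 5, and ACOX3, a peroxisomal oxidase, 3 of 3, 1 of 1 and 4 of 4. These positions were complete or nearly so in both constructs, with few reads behind each library's value. No deaminase-free cells are among the samples, and removal of genomic variants is not stated. An edit at these positions therefore cannot be told apart from a variant of the DNA.

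Others were listed as edited in part. TRMT61B, a mitochondrial tRNA methyltransferase, had 6 of 24, 6 of 16 and 4 of 10 reads (chromosome 2, 29083987), and ECPAS had 5 of 21, 6 of 31 and 5 of 21 (chromosome 9, 114213713). The ECPAS position accounts for 5 of that gene's 9, 6 of its 12 and all 5 of its edited reads. EPHA7, an ephrin receptor, had 7 of 17, 5 of 20 and 3 of 4 reads, and 26 of 65 and 9 of 29 in Ribo-STAMP cells. GPN3, a GTPase needed to assemble RNA polymerase II, had 8 of 21, 4 of 12 and 1 of 3. ATF7IP, a partner of the histone methyltransferase SETDB1, had 3 of 10, 6 of 13 and 3 of 8, and ALKBH8, a tRNA-modifying enzyme, 2 of 5, 2 of 4 and 4 of 8. LRRC8A, a subunit of the volume-regulated anion channel, had 2 of 15, 4 of 14 and 2 of 13, and TICRR, a factor of replication start, 2 of 4, 4 of 5 and 1 of 3. These shares rest on 3 to 31 reads per library, and the differences between libraries were not tested. At these partly edited positions too, an edit cannot be told apart from a variant of the DNA.

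Weak recurrent positions were mostly in abundant messages. A pair in the alpha-tubulin gene TUBA1B, 9 bases apart (chromosome 12, 49521948 and 49521957), had 4, 2 and 2 edited reads each, of 628 or 629, 693 and 762. TUBA1B has close paralogs, so reads could be shared with them. The position in CTNNB1 had 3 of 451, 2 of 292 and 2 of 350. In 6 of the 12 each library showed 1 edited read, for example 1 of 447, 1 of 422 and 1 of 439 in ACTG1 and 1 of 471, 1 of 450 and 1 of 377 in VCP.

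**Figure D4:**
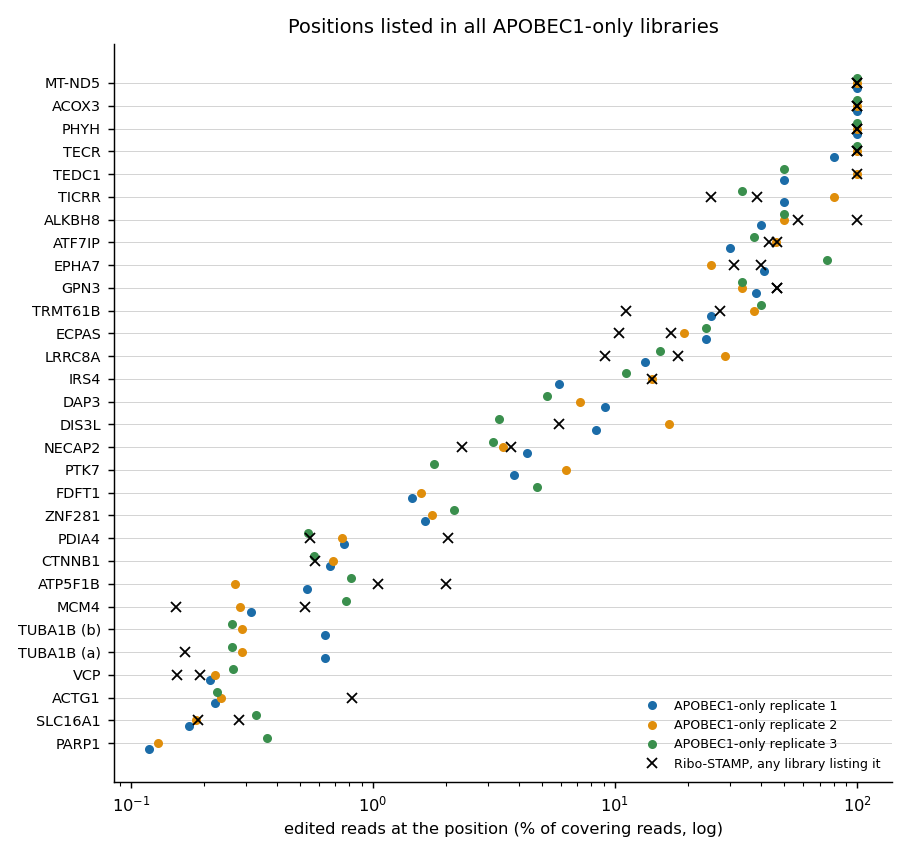
Percent of reads edited in each APOBEC1-only library (log axis) at the positions listed in all 3 libraries, one row per position named by its gene; points are APOBEC1-only replicates, set slightly apart in height, and crosses are the Ribo-STAMP libraries that listed the position. Values from 10 to 100% belong to thinly covered positions such as PHYH and ECPAS, and values under 2% mostly to abundant messages such as TUBA1B and CTNNB1.

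Among all listed positions, 54, 53 and 55 per library had at least 10% of reads edited at a coverage of 10 or more. Of these 20.4, 22.6 and 16.4% were listed in another APOBEC1-only library, against 5.64, 5.50 and 5.76% of the remaining positions of that coverage. The positions listed in all 3 libraries are part of these counts: they make up 7 of the 11, 8 of the 12 and 4 of the 9 strongly edited positions listed again. Only 16, 14 and 16 of the strongly edited positions had 2 or more edited reads, and the rest had 1. Of those with 2 or more, 11, 10 and 7 were listed in another library. This breakdown was chosen after the values were seen. Isoform entries with 50% or more of reads edited numbered 160, 166 and 149, but 87, 85 and 77 of them had a single covering read and 2, 1 and 1 had 10 or more.

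Gene groups were described by how many members were listed. Among all listed genes 13.9% were in all 3 libraries, a share that stands beside a group's count in all 3 over its listed members. For the counts of listed members the nearest share is 66.9%. That is the part of 3009 isoforms, listed in all 3 Ribo-STAMP libraries and with a known coding length, that some APOBEC1-only library listed. Of 20 aminoacyl-tRNA synthetases, which charge tRNA with amino acids, 19 were listed and 16 were in all 3 libraries, among them MARS1 (7, 8 and 7 edited reads), GARS1 (3, 5 and 11) and EPRS1 (6, 6 and 7). Of 28 splicing, SR and hnRNP genes 24 were listed and 20 were in all 3, with SF3B2 at 8, 6 and 8 edited reads, the helicase DHX9 at 9, 8 and 2 and HNRNPK at 6, 8 and 4. Of 22 cytosolic chaperones, which fold new proteins, 19 were listed and 15 were in all 3, with CCT4 at 11, 6 and 7, CCT2 at 2, 13 and 8 and CCT5 at 6, 11 and 5. HSP90AB1, at 17, 18 and 7, has close paralogs and pseudogenes. In these groups repeated listing went with median coverages of 89, 141.75 and 266 reads, against 20 over all listed genes. Other groups had fewer repeats at coverages near or above the 89 of the synthetases. Translation factors, at 83 reads, had 11 of 29 listed members in all 3, and DNA replication genes, at 83.9, had 8 of 22. Endoplasmic reticulum genes, at 127, had 11 of 18.

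Groups with fewer repeats included the 34 translation factors, with 29 listed and 11 in all 3, and the 24 cytoskeletal genes, with 22 listed and 8 in all 3. PABPC1, the poly(A)-binding protein, had 11, 4 and 21 edited reads. TUBA1B had 24, 8 and 22, so that replicate 2 was low at a coverage of 693 between those of the others. Of 20 endoplasmic reticulum genes 18 were listed and 11 were in all 3, including CANX at 6, 8 and 4 and HSPA5, the chaperone BiP, at 3, 7 and 6. Glycolysis had 14 of 17 listed and 9 in all 3, with PKM at 9, 11 and 5, PGK1 at 6, 3 and 6 and GAPDH at 3, 1 and 4.

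DNA replication and cell cycle genes numbered 22 listed of 26 and 8 in all 3, with MCM5 at 6, 6 and 4 and MCM7 at 4, 3 and 8. DNA repair had 7 of 10 listed and 5 in all 3, with MSH6 at 10, 6 and 3 and XRCC6 at 8, 7 and 4. For nuclear transport 15 of 18 were listed and 5 were in all 3, with KPNB1 at 6, 10 and 9 and CSE1L at 11, 11 and 1. The low value of CSE1L in replicate 3 came at 124 covering reads, against 476 and 420. Proteasome and ubiquitin activation had 13 of 23 listed and 5 in all 3, with PSMD1 at 13, 6 and 3 and UBA1 at 1, 10 and 8. Nuclear genes of the tricarboxylic acid cycle and respiratory chain had 19 of 26 and 5, with ATP5F1A at 2, 8 and 5. Cholesterol and fatty acid synthesis had 10 of 15 and 3, with the desaturase SCD at 3, 4 and 2, and amino acid synthesis with the integrated stress response had 7 of 16 and 1, with SESN2 at 1, 1 and 5.

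Cytosolic ribosomal proteins were the sparsest large group. Of 77, 20 were listed, 1 of them in all 3 libraries, 3 in 2 and 16 in 1, and 69 were listed in Ribo-STAMP cells. Their coverage was thin. Of their 33 isoforms with a known coding length in all 3 Ribo-STAMP libraries, 14 (42.4%) were listed in some APOBEC1-only library. The median Ribo-STAMP coverage of those 33 was 9 reads, against 26 over all such isoforms. Over all isoforms covered there by 1 to 9 reads, 58.5% were in no APOBEC1-only library. In the next classes, starting at 10 and at 20 reads, 46.2 and 30.9% were in none. With a median of 9 reads, part of the group can lie above the lowest class. Whether the group was listed less often than other isoforms of like coverage was not tested. The 57 edited reads of ribosomal proteins were uneven, with 15 in replicate 1, 3 in replicate 2 and 39 in replicate 3. RPL3 had 4, 0 and 9, RPL4 3, 0 and 5, and RPL5 0, 0 and 6. RPS2, the protein that carries APOBEC1 in the fusion, was the gene in all 3 and had 1, 1 and 6 edited reads at 96, 73 and 300 covering reads. Coverage of RPL3 and RPL4 was higher in replicate 3 as well, 439 and 348 reads against 179 and 211 in replicate 1. The listed members had a median coding length of 613.5 bases.

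**Figure D5:**
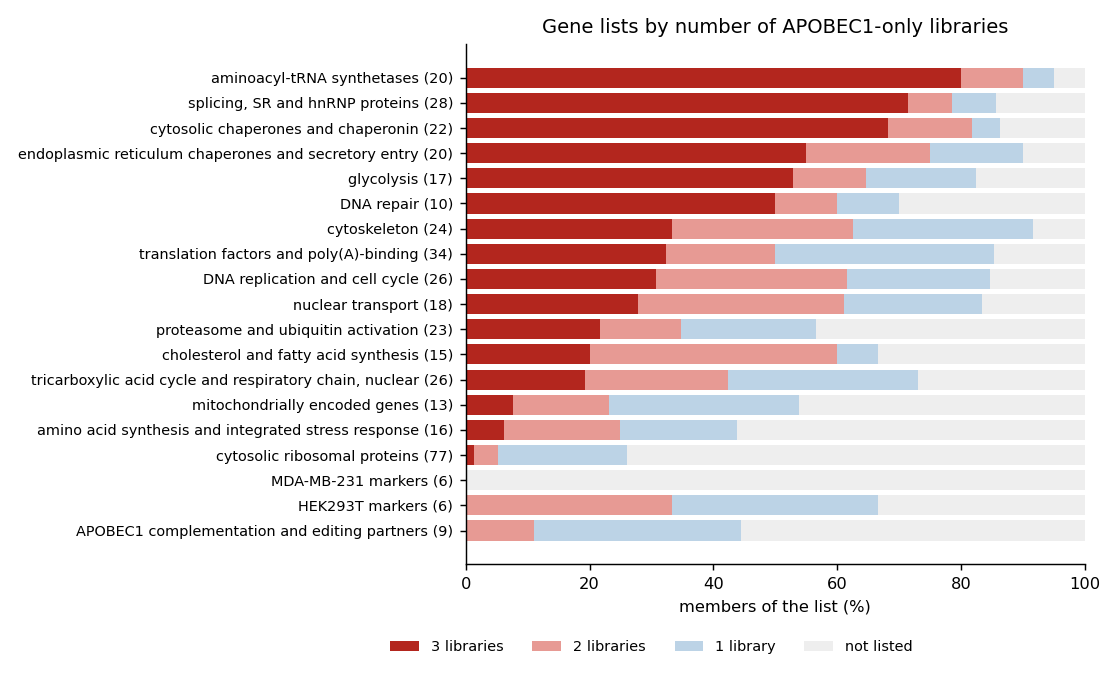
Members of each gene list that were listed in 3, 2, 1 or no APOBEC1-only library, as a share of the list. Splicing genes and aminoacyl-tRNA synthetases have most members in all 3 libraries (20 of 28 and 16 of 20), and ribosomal proteins have 57 of 77 in none.

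Unlisted isoforms can be kept at 0 by taking Ribo-STAMP coverage as the denominator. Over 3009 isoforms with a known coding length the rate was 8.77 ± 0.847 edited reads per 1000 covering reads and kilobase (SD, n = 3). Splicing genes were at 8.82 ± 1.02, cytosolic chaperones at 9.23 ± 1.80, aminoacyl-tRNA synthetases at 7.70 ± 2.09, translation factors at 11.1 ± 3.29 and DNA repair genes at 9.0 ± 0.723. Endoplasmic reticulum genes were at 9.27 ± 1.14, proteasome genes at 8.24 ± 1.60 and DNA replication genes at 7.52 ± 0.638. The value of nuclear transport was lower, 5.15 ± 1.92. Those of glycolysis (19.3 ± 1.59), the cytoskeleton (14.5 ± 3.8) and the nuclear tricarboxylic acid cycle and respiratory chain genes (12.4 ± 1.72) were higher. The 3 glycolysis values lay between 18.0 and 21.1. With APOBEC1-only coverage the order differed. Per 100 covering reads and kilobase, members in all 3 libraries had medians of 1.64, 1.35 and 0.960 in these groups. Over all genes in all 3 libraries the median was 1.53. The rates with zeros kept pool the reads of a group, so a few members can carry them. TUBA1B, ACTB and ACTG1 had 54, 34 and 31 of the 179 edited reads of cytoskeletal genes. ENO1 had 55 of the 151 of glycolysis. Cholesterol synthesis (13.4 ± 5.46) and amino acid synthesis (10.5 ± 10.8) varied more between libraries, on 9 isoforms each. Ribosomal proteins were at 21.7, 3.34 and 55.2 in the 3 libraries, a spread that leaves no group level to read. Shorter coding sequences had higher rates per kilobase above, and median coding length was 1374 bases for glycolysis and 3114 for nuclear transport. The part of length in these group values was not tested. The denominator comes from the other construct, so a difference in abundance between constructs enters these rates. It is also 1 fixed coverage for all 3 libraries, so a shift in abundance between libraries enters them too.

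Such a shift was present. Over the 458 genes, coverage in replicate 3 against the mean of replicates 1 and 2 had a median log2 ratio of -0.30, with a 10th to 90th percentile range of -1.42 to 0.83, while replicate 1 against replicate 2 had a median of 0.10 and a range of -0.43 to 0.50. Members of the translation factor list had a median of 0.56 and of the synthetase list 0.42, whereas chaperones were at -1.10 and nuclear transport at -0.87. Edited reads in replicate 3, against the mean of the other libraries, lay on the same side as coverage in 249 of the 458 genes and on the opposite side in 113, with 96 equal in either measure. Among the 20 most repeatedly edited genes 17 lay on the same side, 2 on the opposite side, CTNNB1 and VCP, and 1 was equal. What set replicate 3 apart in coverage was not tested.

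Mitochondrially encoded genes were listed with 10, 5 and 33 edited reads, in 7 of 13 genes. MT-ND4, another complex I subunit, stood out in replicate 3 with 14 edited reads at 8 positions where about 9 reads covered it. Position 11018 held 7 of the 14, at 7 of 7 reads, and each other position had 1. In replicate 1 position 11018 was listed at 2 of 2. An edit there cannot be told apart from a variant of the DNA, as at the complete positions above. MT-CO1 had 1 and 2 edited reads in replicates 1 and 2 at 95 and 60.5 covering reads. A few other genes also had many positions on few reads, and they were picked out after the values were seen: ENSG00000203832 with 14 and 15 positions in replicates 1 and 2, NBPF20 with 7 in replicate 2, and TUBB4A, CFAP107 and ZNF33B with 5, 6 and 8 in replicate 3, each under 10 covering reads. NBPF genes form a family of near-identical copies and their values are uncertain. Of a list of 9 genes made up of APOBEC1 and its complementation and editing partners, 4 were listed, none in all 3 libraries: CELF2 and TNPO2, SYNCRIP with 1 read in replicate 2 and HNRNPAB with 1 in replicate 3.

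Against the fusion, 3 whole-library measures were compared with exact two-sided permutation tests. With 3 libraries in each group the smallest p is 0.1, so no difference can be called. Scaled to 2791 positions per library, 3.34% ± 0.101 of APOBEC1-only positions were listed again in another library of the group, against 1.43% ± 0.0673 in Ribo-STAMP (SD, n = 3, p = 0.1, exact permutation test). The ratio was 2.33 and the 3 values of each group did not overlap. Without scaling the shares were 3.64 and 22.4%, the Ribo-STAMP libraries being far larger, so the direction depends on the scaling. The 10 genes with most edited reads held 6.20% ± 1.06 of them in APOBEC1-only and 9.85% ± 1.30 in Ribo-STAMP, and the 100 top genes 27.0% ± 1.77 and 35.3% ± 1.01 (SD, n = 3, p = 0.1 for each, exact permutation test). Ranked by number of positions instead of edited reads, these 2 differences reversed, to 5.76 against 4.74% and 26.0 against 24.3%.

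Reads with more than 1 edit were counted in both constructs, again without a difference that can be called at this number of libraries. Of isoforms covered by exactly 1 read, 3 of 79, 4 of 67 and 4 of 69 carried 2 or more edited positions in APOBEC1-only (5.19% ± 1.21, SD, n = 3), against 31.2% ± 0.291 in Ribo-STAMP (p = 0.1, exact permutation test, chosen after the values were seen). An isoform is listed only if that read was edited, so both shares are among edited reads. The groups did not overlap: the highest APOBEC1-only library was at 5.97% and the Ribo-STAMP libraries lay between 30.9 and 31.4%.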

How the data were processed

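Edits were read from PacBio Iso-Seq libraries of polyadenylated RNA, per the labels' protocols. The authors deposited 1 table per library without a header, holding a coding-sequence position of an isoform and a pair of whole-number read counts; that the pair means edited and covering reads comes from the values, since the first never exceeds the second. Not given in the sources used here are the aligner, the edit caller and its filters, any use of strand and any removal of genomic variants. The submitters' processing notes name hg19 and hg38 without a role, and 3.26 to 4.75% of APOBEC1-only entries fell inside their gene's coding sequence in GRCh38 (GENCODE 29), so coordinates are as listed, 1-based, and no sequence was read.

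Gene coverage is the sum over listed isoforms of the isoform's median coverage. Coding lengths came from GENCODE 29 by transcript identifier. Calculations used Python 3.11.15, pandas 2.3.3, numpy 2.4.6 and scipy 1.17.1, and the coverage estimates were tested on simulated data. Intervals of shares are 95% Clopper-Pearson intervals for counting error alone, because reads may stem from the same molecule. Genes named are the 20 of most repeated positions, the 10 highest and 5 lowest per read among genes with at least 20 covering reads in each library, genes of the 15 recurrent positions with most edited reads, and up to 4 members of each of 19 lists; others are marked as chosen later, and a few genes that these rules pick are not reported here. The members, lists and rules were chosen with earlier results of these data known. Same-numbered libraries of the constructs deviated together in isoform coverage (r = 0.21, 0.39 and 0.56 over 405 isoforms), but APOBEC1-only 1 correlated more with Ribo-STAMP 2 (0.57) and 2 with 1 (0.42), and the labels state no pairing. No pair of libraries held identical values: of 121, 99 and 86 shared entries, 10, 5 and 4 had the same pair of counts.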

Additional observations from a re-analysis of the deposited data

How the results depend on the processing

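Of the alternatives run, 54 values were counted as kept, 14 moved further and 2 reversed. Untested values were kept if they stayed within 1.5 times the reported count or within 1 SD. Tested values were kept if their direction held, with no limit on size. The smallest p of their exact permutation tests, 0.1 or 0.25 when paired, cannot pass the threshold of 0.05. For tested values only a reversal could therefore show. Keeping only positions with at least 2 edited reads left 13 genes in all 3 libraries, 272.0 edited reads and 105.3 positions per library, and a median of 29.2 edited reads per 100 covering reads for genes in all 3. Keeping positions covered by at least 20 reads gave 2265.7 edited reads, 2174.0 positions and a median of 2.39, and a pseudocount of 1 edited read gave a median of 4.38. With the lowest instead of the median Ribo-STAMP coverage, 20.2% of isoforms covered by 1 to 9 reads were listed. Counting positions instead of edited reads reversed the differences between constructs for the top 10 and 100 genes, to 1.02 and 1.77 percentage points; the cause was not tested. Leaving out 1 library, which asks for listing in 2, gave 674.0 to 823.0 genes (823.0 without replicate 3, 726.0 without replicate 2) and medians of 3.28 to 3.72. The other results without 1 library ranged from 2905.0 to 3163.5 positions, 3072.0 to 3335.5 edited reads, and 1.71 to 2.29 percentage points for repeated positions. With the replicate block the difference for repeated positions was 1.91 points (p = 0.25, exact paired permutation test, its smallest possible). At that smallest p the block could change no call. The alternatives chosen after seeing the data were ranking the top genes in the other libraries (4.29 against 7.65% and 21.4 against 32.0%) and leaving out mitochondrial and thinly covered genes with many positions (1.76 points). Total depth is unknown and most genes had 1 edited read per library, so a gene not listed is not shown to be unedited.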
